A study of Phalaenopsis amabilis with 15 samples.

Results

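The comparison of day 40 with day 20 under a long photoperiod used 6 of the 15 libraries of the series, the 3 of LD_40d and the 3 of LD_20d, which were chosen by their labels and not by any measured value. The RNA came from the young leaves at the top of the moth orchid Phalaenopsis amabilis, and each library pooled leaves of 3 plants. LD_40d and LD_20d plants had stood for 40 and 20 days in 16 h of light a day, with days of 25 °C and nights of 18 °C, so the light and the cool temperature were shared and the length of the stay differed. SD_40d and SD_20d plants had 8 h of light a day at the same temperatures for the same times, and the control plants were taken at day 0 from 12 h of light, with days of 28 °C and nights of 25 °C. The labels name no cultivar, mutant line or agent besides light and temperature. Days in treatment, plant age and the age of the leaf that was uppermost on the sampling day cannot be told apart, and the labels do not state at what hour leaves were taken.

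A young leaf grows first by cell division and then by expansion of the cells it has made. As it matures, the transcripts of cyclins, kinesins and replication factors decline, the cell wall becomes less extensible, and the chloroplasts fill with the proteins of photosynthesis. Phalaenopsis fixes carbon by crassulacean acid metabolism (CAM), in which CO2 is bound at night by phosphoenolpyruvate carboxylase (PEPC) and stored as malate. In this genus cool days are the usual signal for flower spikes, and in flowering plants the leaf sends that signal as a protein of the FLOWERING LOCUS T family.

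At day 40, the genes called in cell division, leaf patterning, cell wall and auxin lists were nearly all falls. Those called in the lists of WRKY and NAC transcription factors, gibberellin, photosystem and photoprotection genes were nearly all rises. Some of these lists held few calls, with 2 of 34 photosystem genes and 2 of 7 photoprotection genes. Of 13 antenna and 22 chlorophyll synthesis genes, 0 were called. Of 16700 genes tested, 362 rose and 499 fell, that is 2.17% and 2.99%, or 5.16% in either direction. A call is an adjusted p under 0.05 in a fit across all genes, values are counts per 1e6 counts (CPM) scaled between libraries, and fold changes are log2 values of LD_40d over LD_20d ± standard error (SE), with 3 libraries a group. Among the calls, 172 rises and 321 falls were at least 1 on the log2 scale. The values of the 3 LD_40d libraries and the 3 LD_20d libraries did not overlap for 829 of the 861 called genes. Over all tested genes, 14.4% were higher in LD_40d without overlap and 16.4% were lower.

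The 6 libraries were unequal. Their totals ran from 11836889 to 14225626 counts, and the first principal component of the 6, which held 56.6% of their variance, placed LD_40d replicates 1, 2 and 3 at -65.4, -49.2 and -13.7 and LD_20d replicates 1, 2 and 3 at 16.7, 69.7 and 42.0. LD_40d replicate 1 and LD_20d replicate 2 thus lay at the ends, and LD_40d replicate 3 and LD_20d replicate 1 lay next to each other. Without LD_40d replicate 1 the test called 1 gene, without LD_20d replicate 2 it called 2, and without LD_20d replicate 3 it called 16, against 861 in the full fit. At an unadjusted p under 0.05 the same 3 fits held 3088, 2904 and 3722 genes, against 4618 in the full fit. Without LD_40d replicate 2 there were 325 calls, without LD_40d replicate 3 there were 2011, and without LD_20d replicate 1 there were 1265. Each library is a pool, so p-values measure the spread between pools, and the gene groups describe these 6 libraries.

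**Figure D1:**
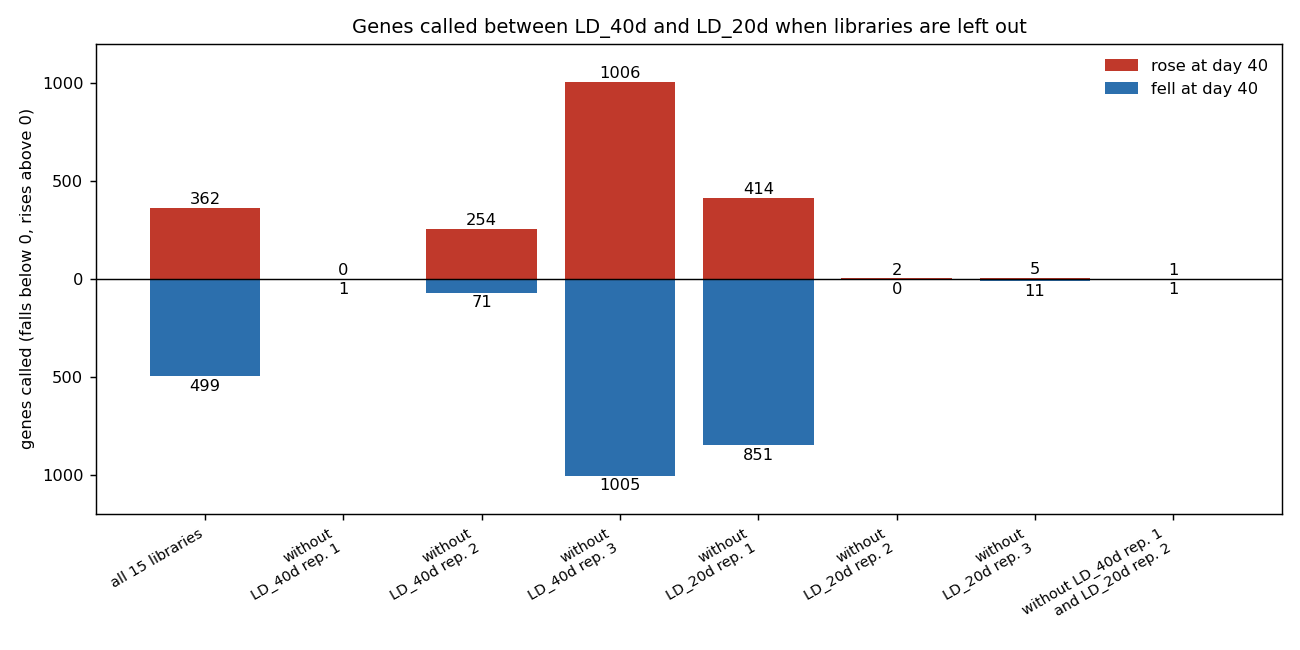
Genes called between LD_40d and LD_20d (vertical axis, number of genes, rises above 0 and falls below 0) in the fit to all 15 libraries and in fits without 1 or 2 libraries (horizontal axis). The full fit called 362 rises and 499 falls, while the fits without LD_40d replicate 1, LD_20d replicate 2 or LD_20d replicate 3 called 1, 2 and 16 genes.

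The list with the most calls by number was mitosis and cytokinesis. Of 138 genes tested, 27 fell and 0 rose, a share of 19.6% against 2.99% of all genes, and the median log2 fold change was -0.64 against 0.01 over all genes. KNOLLE (LOC110033252, scaffold NW_018165555.1, 565463 to 566925), the syntaxin that builds the cell plate, had 0, 0.0861 and 0.273 CPM in LD_40d, against 0.976, 41.4 and 8.88 CPM in LD_20d (log2 fold change -6.98 ± 1.47, adjusted p = 0.031). KIN-10A (LOC110028660), a kinesin motor, had 0.761, 0.258 and 1.09 CPM in LD_40d, against 1.88, 14.4 and 4.70 CPM in LD_20d (log2 fold change -3.26 ± 0.67, adjusted p = 0.0289). In both genes LD_20d replicate 2 was far above the other libraries, and the groups did not overlap. UBC20 (LOC110031304, scaffold NW_018165240.1, 787137 to 789257), a ubiquitin-conjugating enzyme of dividing cells, had 2 counts in the 3 LD_40d libraries together, against 306 in the 3 LD_20d libraries. That is a ratio of LD_20d over LD_40d of 142, with a counting interval (95%, exact) of 38.8 to 1170.0 (adjusted p = 0.028). This interval, like the others of its kind below, covers counting error in the pooled counts and not the spread between libraries. KIN-4C (LOC110030600), a kinesin motor of another family, had 0.685, 1.46 and 2.11 CPM in LD_40d, against 2.58, 41.3 and 6.16 CPM in LD_20d (log2 fold change -3.54 ± 0.83, adjusted p = 0.0404).

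The genes that copy and pack DNA gave fewer calls. Of 61 DNA replication genes, 3 fell and 0 rose (4.92% against 2.99%), and of 41 histone genes 1 fell and 0 rose (2.44% against 2.99%). Their medians were -0.33 and -0.35. In the fit without LD_20d replicate 2 they were -0.14 and -0.26 with 0 calls. Both lists also had 0 calls without LD_40d replicate 1, LD_40d replicate 2 or LD_20d replicate 3, and without LD_20d replicate 1 the replication list held 14 falls and the histones 3. TOP2 (LOC110022709), the topoisomerase that untangles copied chromosomes, had 0.152, 0 and 1.02 CPM in LD_40d, against 1.67, 105 and 20.4 CPM in LD_20d (log2 fold change -6.61 ± 1.44, adjusted p = 0.0323). MCM7 (LOC110018054), a subunit of the replicative helicase, had 7.76, 7.49 and 4.16 CPM in LD_40d, against 8.37, 21.5 and 13.7 CPM in LD_20d (log2 fold change -1.17 ± 0.31, adjusted p = 0.0483). DPOD2 (LOC110036427), the small subunit of DNA polymerase delta, differed little but evenly, at 27.6, 30.5 and 27.5 CPM in LD_40d, against 35.0, 40.3 and 35.4 CPM in LD_20d (log2 fold change -0.37 ± 0.10, adjusted p = 0.0454). H2AX (LOC110024806), a histone variant tied to DNA damage signalling, had 16.9, 25.7 and 25.7 CPM in LD_40d, against 28.7, 51.5 and 51.5 CPM in LD_20d (log2 fold change -0.95 ± 0.24, adjusted p = 0.0435). Of 33 G1 cyclins and cyclin-dependent kinase (CDK) regulators, 3 fell and 1 rose (9.09% and 3.03%, against 2.99% and 2.17%). The falls were the D-type cyclins CYCD2-1 (LOC110023394, -5.30 ± 1.42) and CYCD3-2 (LOC110037663, -1.83 ± 0.42) and the kinase CDKF-4 (LOC110021781, -0.62 ± 0.15), and the rise was the cyclin locus CYCD3-1 (LOC110025010, 0.47 ± 0.12, adjusted p = 0.0475).

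Summed over the 138 mitosis genes, the level was 3513, 3578 and 3575 CPM in LD_40d, against 3965, 5542 and 4401 CPM in LD_20d. The 3 LD_40d sums lay close together, beside 3471 to 3533 CPM in the control libraries, and LD_20d replicate 2 stood apart above all of them. The markers of dividing tissue were 11 tested cyclin-B, aurora kinase and KNOLLE loci. They summed to 185.5, 192.4 and 190.9 CPM in LD_40d, against 192.6, 382.9 and 227.2 CPM in LD_20d. LD_40d replicate 2 and LD_20d replicate 1 were thus nearly equal, and LD_20d replicate 2 stood apart. The control libraries had 221.7, 243.5 and 201.7 CPM. Less dividing tissue in the sampled leaf and less of these transcripts in each cell cannot be told apart in whole-leaf RNA. Without LD_20d replicate 2 the median of the mitosis list was -0.40 with 0 calls, without LD_40d replicate 1 it was -0.61 with 0 calls, and without LD_20d replicate 3 it was -0.68 with 0 calls. The part of LD_20d replicate 2 in the division genes was not tested beyond these values.

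**Figure D2:**
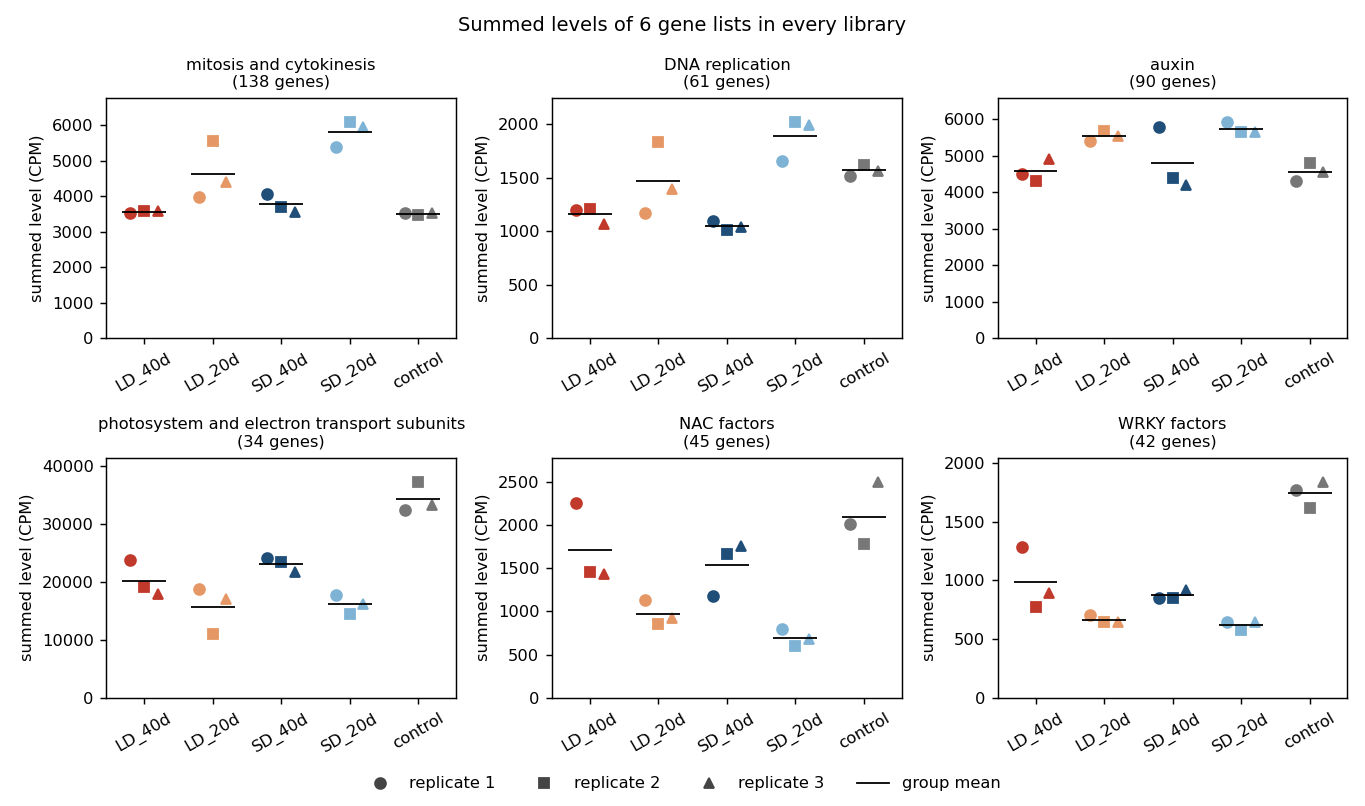
Summed level of 6 gene lists (vertical axes, CPM from 0) in every library of the 5 groups (horizontal axes), with a point per library, a marker shape per replicate number and a line at the group mean. For mitosis genes the LD_40d libraries sit at 3513 to 3578 CPM and the LD_20d libraries at 3965 to 5542 CPM, and for WRKY and NAC factors LD_40d replicate 1 stands above the other 2 LD_40d libraries.

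Several regulators of leaf shape and growth fell. Of 51 meristem and leaf patterning genes, 7 fell and 0 rose (13.7% against 2.99%), while the median of the list was -0.05, near that of all genes. YABBY 2 (LOC110020496, scaffold NW_018164540.1, 732292 to 759708), a factor that marks the lower side of the leaf in Arabidopsis, had 8.14, 10.8 and 7.91 CPM in LD_40d, against 18.4, 25.6 and 24 CPM in LD_20d (log2 fold change -1.34 ± 0.24, adjusted p = 0.0237). Each group was narrow and the groups lay far apart. Its relative YABBY 4 (LOC110034047) had 0.990, 1.29 and 4.36 CPM in LD_40d, against 5.51, 85.0 and 13.3 CPM in LD_20d (log2 fold change -3.93 ± 0.97, adjusted p = 0.0417), with LD_20d replicate 2 far above the rest. The growth-regulating factors, which sustain cell proliferation in leaves, gave 3 calls: GRF4 (LOC110020316, -2.10 ± 0.45), GRF6 (LOC110018686, -2.03 ± 0.55) and GRF12 (LOC110036806, -4.29 ± 1.1). GRF4 had 3.88, 3.87 and 6.21 CPM in LD_40d, against 6.41, 36.3 and 17.5 CPM in LD_20d. GRF12 had 0.0761, 0 and 1.16 CPM in LD_40d, against 3.70, 10.8 and 12.0 CPM in LD_20d. WOX4 (LOC110026126), a homeobox factor of the cambium in Arabidopsis, had 0.381, 0 and 0.205 CPM in LD_40d, against 1.32, 3.14 and 1.76 CPM in LD_20d (log2 fold change -3.31 ± 0.70, adjusted p = 0.031). In all of these genes the groups did not overlap, and the level of WOX4 and GRF12 was low throughout.

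The called falls also held a repressor of meristem genes. Asymmetric leaves 2 (AS2, LOC110036062), which acts in the leaf, had 3.73, 3.87 and 3.20 CPM in LD_40d, against 5.16, 12.1 and 6.68 CPM in LD_20d (log2 fold change -1.15 ± 0.29, adjusted p = 0.0442). Loci described as knotted-type or WUSCHEL-related homeobox genes were grouped by these words as possible meristem markers. Whether each of them marks a meristem in this plant was not tested, so their sum is not a measure of meristem tissue. Summed over 8 tested loci they reached 403 to 411 CPM in LD_40d and 279 to 376 CPM in LD_20d, higher in LD_40d. The KNOX-type locus KNAP3 alone held 215 to 223 CPM of this in LD_40d and 139 to 184 CPM in LD_20d. WOX4, another of these genes, fell, so the sum does not speak for each locus. At least 6 of the 19 marker loci were at 0 counts in every library of the 2 groups. The part of these markers in the results was not tested. Of the 38 members of the list that were expressed and not called, 8 were higher and 5 lower in LD_40d without overlap, and 25 overlapped. Over all genes, 14.4% were higher and 16.4% lower without overlap. BLH1 (LOC110019499), a BEL1-like homeobox factor, had 796, 1015 and 895 CPM in LD_40d, against 635, 273 and 457 CPM in LD_20d (log2 fold change 0.99 ± 0.38, adjusted p = 0.115). BLH2 (LOC110031944) had 414, 377 and 368 CPM in LD_40d, against 345, 185 and 251 CPM in LD_20d (log2 fold change 0.57 ± 0.19, adjusted p = 0.0794), and the KNOX-type locus KNAP3 (LOC110024018) had 215, 216 and 223 CPM in LD_40d, against 184, 139 and 143 CPM in LD_20d (log2 fold change 0.49 ± 0.14, adjusted p = 0.0615). The factors TCP4 (LOC110022572) and GRF6 at a second locus (LOC110032306) were lower in every LD_40d library and not called, at -1.59 ± 0.56 (adjusted p = 0.0949) and -1.14 ± 0.38 (adjusted p = 0.0818). Without LD_40d replicate 1, LD_20d replicate 2 or LD_20d replicate 3, 0 members of this list were called, the median was -0.06, 0.03 and -0.07, and YABBY 2 stood at -1.28, -1.25 and -1.30.

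Some enzymes that build and loosen the cell wall fell. Of 74 pectin-modifying enzymes 5 fell (6.76%), of 37 expansins and xyloglucan enzymes 3 fell (8.11%), of 53 cellulose and secondary wall genes 3 fell (5.66%), and of 39 phenylpropanoid and lignin genes 3 fell (7.69%), each with 0 rises and beside 2.99% of all genes. The medians were -0.42, 0.06, -0.17 and 0.10, so for the expansin and lignin lists the sign of the median was opposite to that of the calls, and the expansin median was -0.08 without LD_40d replicate 1. XTH32 (LOC110017913, scaffold NW_018164444.1, 65831043 to 65833958), which cuts and rejoins xyloglucan, had 5.02, 3.87 and 5.80 CPM in LD_40d, against 13.2, 38.2 and 40.5 CPM in LD_20d (log2 fold change -2.64 ± 0.42, adjusted p = 0.0211). Pectinesterase 1 (PME1, LOC110029424), which removes methyl groups from pectin, had 1.37, 2.67 and 6.82 CPM in LD_40d, against 18.4, 43.3 and 49.4 CPM in LD_20d (log2 fold change -3.33 ± 0.81, adjusted p = 0.0408). Polygalacturonase 1 beta-like protein 2 (PGL2, LOC110038821) had 3.04, 0.172 and 0.750 CPM in LD_40d, against 3.49, 21.8 and 26.8 CPM in LD_20d (log2 fold change -3.69 ± 0.91, adjusted p = 0.0419), with LD_40d replicate 1 and LD_20d replicate 1 nearly alike. Every LD_40d value of these 3 genes lay under every LD_20d value.

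Endoglucanase 17 (GUN17, LOC110039602), a beta-1,4-glucanase, had 1.90, 1.72 and 5.25 CPM in LD_40d, against 15.9, 83.5 and 35.3 CPM in LD_20d (log2 fold change -3.89 ± 0.91, adjusted p = 0.04). CSLD5 (LOC110037910), a cellulose synthase-like protein of the forming cell plate in Arabidopsis, had 4.57, 4.30 and 4.16 CPM in LD_40d, against 5.79, 82.4 and 24.9 CPM in LD_20d (log2 fold change -3.12 ± 0.70, adjusted p = 0.036). The LD_40d values of CSLD5 were nearly equal, and LD_20d replicate 1 lay close above them. CESA5 (LOC110033333), a cellulose synthase subunit, differed by -0.77 ± 0.19 (adjusted p = 0.0404). Cinnamate 4-hydroxylase (TCMO, LOC110019442), the second enzyme of the phenylpropanoid pathway, had 46.0, 51.6 and 79.4 CPM in LD_40d, against 130.4, 194 and 209 CPM in LD_20d (log2 fold change -1.59 ± 0.31, adjusted p = 0.0268). Leaving out LD_40d replicate 1, LD_20d replicate 2 or LD_20d replicate 3 removed all calls of these 4 lists, with the pectin median at -0.41, -0.38 and -0.31.

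The leaf surface gave changes in both directions. Of 100 cutin, wax and fatty acid elongation genes, 3 rose (3% against 2.17%) and 6 fell (6% against 2.99%), with a median of -0.05. The aldehyde decarbonylase GL1-4 (GLO14, LOC110021075, scaffold NW_018164563.1, 1016222 to 1024423), of the family that makes wax alkanes, had 616, 674 and 444 CPM in LD_40d, against 161, 221 and 183 CPM in LD_20d (log2 fold change 1.62 ± 0.22, adjusted p = 0.0178). Every LD_40d value was at least double any LD_20d value. KCS6 (LOC110027349), the main condensing enzyme for the very long chains of wax, had 1241, 1335 and 1329 CPM in LD_40d, against 753, 535 and 957 CPM in LD_20d (log2 fold change 0.80 ± 0.19, adjusted p = 0.0415). Among the falls, protodermal factor 1 (PDF1, LOC110036578), a protein of the young epidermis, had 1.29, 0.947 and 4.77 CPM in LD_40d, against 8.92, 41.7 and 20.9 CPM in LD_20d (log2 fold change -3.31 ± 0.75, adjusted p = 0.037). The esterase locus GDL85 (LOC110033776) had 7.08, 11.8 and 13.8 CPM in LD_40d, against 27.5, 35.4 and 39.4 CPM in LD_20d (log2 fold change -1.65 ± 0.31, adjusted p = 0.026).

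Of 17 genes for stomata, 1 rose and 1 fell (5.88% each, against 2.17% and 2.99% of all genes). The median was -0.77, with 6 members lower in LD_40d without overlap and 0 higher, where 16.4% and 14.4% of all genes were so. EPFL9 (LOC110018723), a peptide that promotes stomata and is called stomagen in Arabidopsis, had 309, 252 and 127 CPM in LD_40d, against 130.4, 93.7 and 129 CPM in LD_20d (log2 fold change 0.96 ± 0.25, adjusted p = 0.0465), so LD_40d replicate 3 overlapped the day 20 libraries. EPFL2 (LOC110037415), a related peptide that shapes leaf margins in Arabidopsis, had 7 counts in LD_40d and 52 in LD_20d (log2 fold change -2.73 ± 0.73, adjusted p = 0.0484). GLO14 kept values of 1.57, 1.75 and 1.60 without LD_40d replicate 1, LD_20d replicate 2 and LD_20d replicate 3, and was not called in any of these fits. The same holds for the other genes of the surface and of stomata named here.

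**Figure D3:**
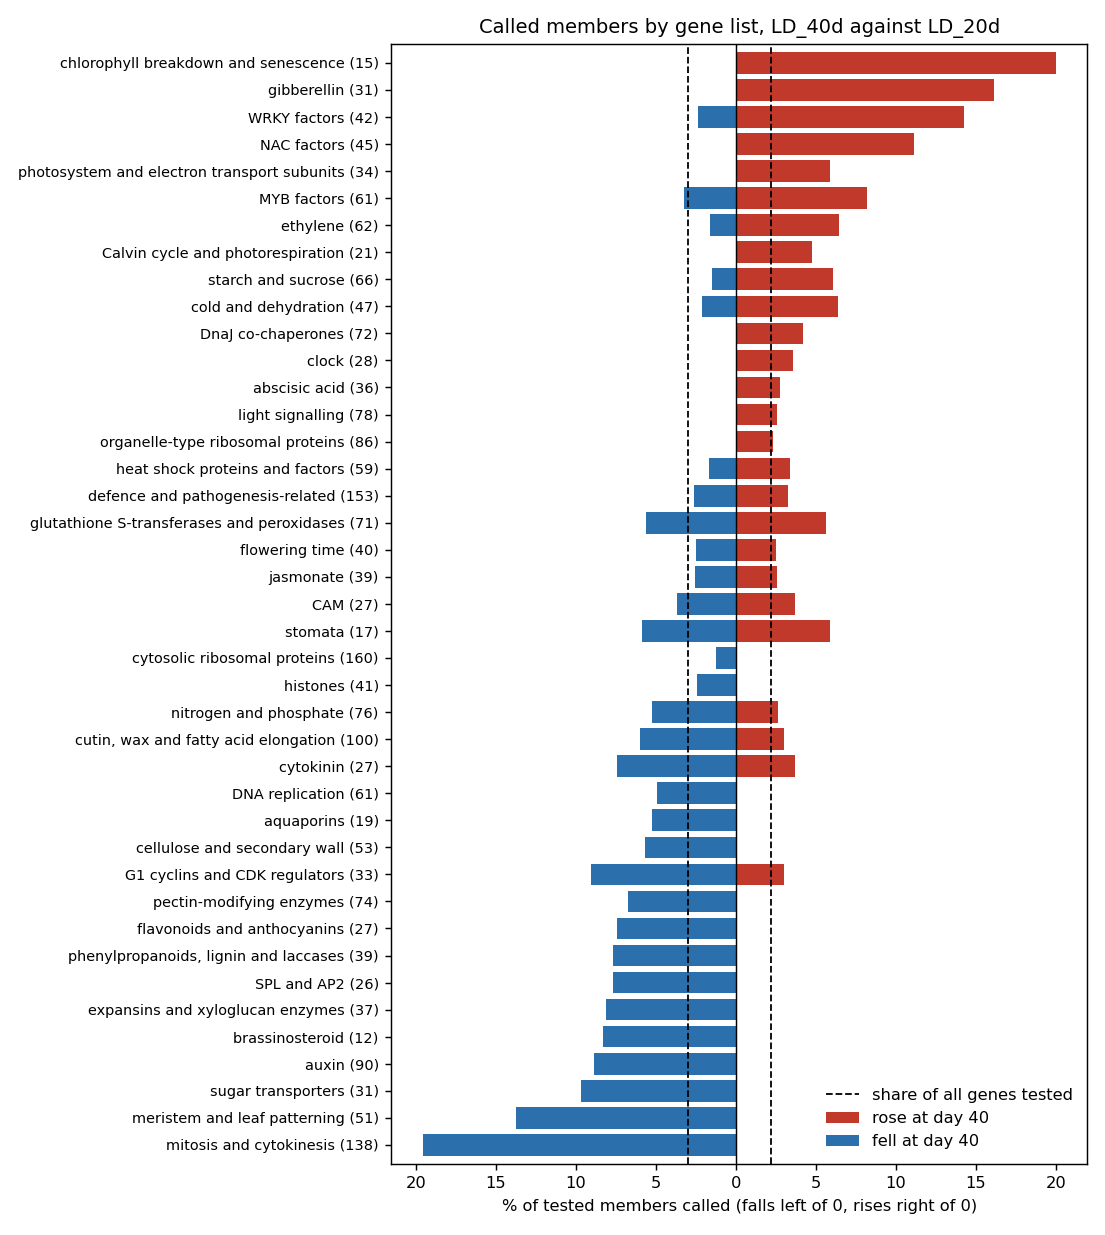
Share of tested members called (horizontal axis, %, falls in blue left of 0 and rises in red right of 0) for each gene list with at least 10 tested members and at least 1 call, with the number tested in brackets. Dashed lines mark the share over all genes, 2.17% for rises and 2.99% for falls, and mitosis and cytokinesis, at 19.6% falls, stands farthest to the left.

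Among chloroplast genes the called photosystem and pigment loci rose, each by less than 2-fold. Of 34 photosystem and electron transport subunits, 2 rose and 0 fell (5.88% against 2.17%), and the median was 0.38. In LD_40d 14 were higher without overlap and 0 lower, where 14.4% and 16.4% of all genes were so. PSAF (LOC110029064, scaffold NW_018164444.1, 49746389 to 49747902), subunit III of photosystem I, had 529, 430.1 and 460.4 CPM in LD_40d, against 323, 226 and 305 CPM in LD_20d (log2 fold change 0.73 ± 0.14, adjusted p = 0.026). ATPD (LOC110018373), the delta chain of the chloroplast ATP synthase, had 135, 120.0 and 86.8 CPM in LD_40d, against 79.1, 53.5 and 71.5 CPM in LD_20d (log2 fold change 0.74 ± 0.19, adjusted p = 0.0437). Of 13 antenna proteins, which bind chlorophyll around the photosystems, 0 were called and the median was 0.39, which was 0.22 without LD_40d replicate 1, 0.21 without LD_20d replicate 2 and 0.04 without both. Of 86 organelle-type ribosomal proteins 2 rose and 0 fell (2.33% against 2.17%), and of 160 cytosolic ribosomal proteins 0 rose and 2 fell (1.25% against 2.99%), with medians of 0.19 and -0.05. Both lists had 0 calls without LD_40d replicate 1, LD_20d replicate 2 or LD_20d replicate 3. Without LD_20d replicate 2 the medians were 0.096 and 0.004, and without LD_40d replicate 3 the organelle-type list held 20 rises.

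Of the zeaxanthin epoxidase (ZEP) loci, 2 rose. This enzyme closes the xanthophyll cycle that protects leaves from excess light. ZEP at LOC110037253 had 71.2, 67.1 and 65 CPM in LD_40d, against 40.7, 30.1 and 44.9 CPM in LD_20d (log2 fold change 0.81 ± 0.15, adjusted p = 0.026). ZEP at LOC110039065 had 109.7, 92.8 and 91.4 CPM in LD_40d, against 68.4, 49.9 and 70.1 CPM in LD_20d (log2 fold change 0.64 ± 0.17, adjusted p = 0.0453). They were the 2 calls among 7 photoprotection genes (28.6% against 2.17%). The ZEP locus LOC110019108, at a log2 fold change of 1.09 ± 0.70, missed the threshold (adjusted p = 0.332). Of 15 genes of chlorophyll breakdown and senescence 3 rose and 0 fell (20% against 2.17%). These were 2 loci of pheophytinase (PPH), which removes the phytol tail from chlorophyll, and OSA15, a senescence-associated protein of rice. PPH at LOC110025926 had 52.1, 51.1 and 60.6 CPM in LD_40d, against 44.8, 32.7 and 38.9 CPM in LD_20d (log2 fold change 0.49 ± 0.13, adjusted p = 0.0445), PPH at LOC110038633 differed by 0.71 ± 0.19 with LD_40d replicate 3 just under LD_20d replicate 1, and OSA15 (LOC110035712) differed by 0.66 ± 0.16. Of 22 chlorophyll synthesis genes 0 were called, with a median of 0.26, which was 0.13 without LD_20d replicate 2 and 0.17 without LD_40d replicate 1. Without LD_40d replicate 3, 5 of them rose.

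The summed level of the 34 photosystem genes was 23690, 19040 and 17940 CPM in LD_40d, against 18695, 11013 and 17062 CPM in LD_20d. The sums overlapped, since LD_40d replicate 3 lay below LD_20d replicate 1, and LD_20d replicate 2 was the lowest. Without LD_20d replicate 2 the median of the list was 0.18, and without LD_40d replicate 1 it was 0.28, with 0 calls in both and in the fit without LD_20d replicate 3, whose median was 0.44. The mesophyll markers, 15 loci of the small subunit of Rubisco and of chlorophyll-binding proteins, summed to 12163 to 15763 CPM in LD_40d and to 9254 to 14766 CPM in LD_20d, and 0 of them were at 0 counts in any library of the 15, so these libraries do hold the transcripts that define green leaf tissue. In the control libraries the sum was 49494 to 63658 CPM, above both groups.

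Genes of CAM differed between the LD_40d libraries. Of 27 CAM genes 1 rose and 1 fell (3.7% each, against 2.17% and 2.99%), and the median of 0.38 was 0.23 without LD_40d replicate 1. Without LD_40d replicate 3 the CAM list held 6 rises and 2 falls. BCA2 (LOC110036198, scaffold NW_018223260.1, 28449 to 67613), a chloroplast carbonic anhydrase, had 189.6, 189.7 and 142 CPM in LD_40d, against 97.3, 72.1 and 106 CPM in LD_20d (log2 fold change 0.92 ± 0.22, adjusted p = 0.0404). PEPC kinase at LOC110023763 (PPCK1), which activates PEPC at night, had 30.7, 27.5 and 25.9 CPM in LD_40d, against 77.3, 64.8 and 112 CPM in LD_20d (log2 fold change -1.60 ± 0.30, adjusted p = 0.026). A second kinase locus, LOC110038259, had 1285, 1305 and 421 CPM in LD_40d, against 776, 417 and 774 CPM in LD_20d and was not called (log2 fold change 0.61 ± 0.64, adjusted p = 0.568). The PEPC locus with more counts, LOC110027447, had 1765, 1581 and 381 CPM in LD_40d, against 388, 566 and 1076 CPM in LD_20d (log2 fold change 0.88 ± 0.64, adjusted p = 0.399), and pyruvate phosphate dikinase (PPDK, LOC110023679), which recovers pyruvate from malate breakdown, had 7165, 6211 and 2904 CPM in LD_40d, against 2096, 2060.3 and 2576 CPM in LD_20d (log2 fold change 1.27 ± 0.41, adjusted p = 0.0734). In these 3 genes LD_40d replicates 1 and 2 were high and LD_40d replicate 3 lay at or near the day 20 level. The level of such genes cycles over the day in CAM leaves, so a change of level and a difference in the hour of harvest cannot be told apart.

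Starch and sucrose enzymes gave more rises than falls. Of 66 starch and sucrose genes, 4 rose (6.06% against 2.17%) and 1 fell (1.52% against 2.99%), with a median of 0.34. In LD_40d 20 members were higher without overlap and 2 lower, where 14.4% and 16.4% of all genes were so. AMY3 (LOC110033066), a chloroplast alpha-amylase, had 611, 598 and 385 CPM in LD_40d, against 354, 240.2 and 306 CPM in LD_20d (log2 fold change 0.82 ± 0.19, adjusted p = 0.0371). ISOA3 (LOC110025087), a debranching enzyme, had 614, 562 and 392.3 CPM in LD_40d, against 288, 266 and 345 CPM in LD_20d (log2 fold change 0.80 ± 0.19, adjusted p = 0.0407). Sucrose-phosphatase (SPP2, LOC110028814), the last step of sucrose synthesis, had 104, 99.0 and 100.2 CPM in LD_40d, against 84.0, 62.8 and 79.8 CPM in LD_20d (log2 fold change 0.42 ± 0.11, adjusted p = 0.0465), the tightest LD_40d values of the 3. The fall was INV3 (LOC110025305), an invertase of the cell wall, at 4.34, 1.12 and 1.64 CPM in LD_40d, against 8.92, 16.9 and 10.6 CPM in LD_20d (log2 fold change -2.35 ± 0.42, adjusted p = 0.0249). Of 31 sugar transporters 3 fell and 0 rose (9.68% against 2.99%), all 3 of them sucrose transporters. The median of the list was -0.11. Its summed level did not fall, at 1747, 1484 and 1750 CPM in LD_40d, against 1587, 1209 and 1219 CPM in LD_20d. SUT3 (LOC110026589) had 2.13, 0.947 and 3.20 CPM in LD_40d, against 7.04, 13.4 and 11.3 CPM in LD_20d (log2 fold change -2.32 ± 0.47, adjusted p = 0.0286), SUT1 at LOC110038014 differed by -1.74 ± 0.46, and SUT1 at LOC110021382 had 1 count in LD_40d and 30 in LD_20d, a ratio of LD_20d over LD_40d of 27.7 (interval 4.61 to 1130.0). Leaving out LD_40d replicate 1, the starch list kept 1 call and the transporters 0, and without LD_20d replicate 2 or LD_20d replicate 3 neither list kept any.

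Among WRKY and NAC transcription factors, rises prevailed. Of 42 WRKY factors 6 rose and 1 fell (14.3% and 2.38%, against 2.17% and 2.99%), and of 45 NAC factors 5 rose and 0 fell (11.1%). The medians were 0.59 and 0.58. WRKY46 (LOC110021306, scaffold NW_018164574.1, 827650 to 829413), known from defence and drought responses in Arabidopsis, had 276, 19.5 and 55.4 CPM in LD_40d, against 4.11, 11.7 and 9.69 CPM in LD_20d (log2 fold change 3.78 ± 0.85, adjusted p = 0.0367). WRKY53 (LOC110022599), a regulator of leaf senescence in Arabidopsis, had 40.1, 5.51 and 4.71 CPM in LD_40d, against 1.60, 1.23 and 1.83 CPM in LD_20d (log2 fold change 3.43 ± 0.74, adjusted p = 0.0323). In both, LD_40d replicate 1 was several times the other LD_40d libraries, and the control libraries averaged 186 and 96.9 CPM. WRKY57 (LOC110024232), with 6.24, 6.11 and 4.71 CPM in LD_40d, against 2.51, 1.71 and 1.17 CPM in LD_20d (log2 fold change 1.65 ± 0.30, adjusted p = 0.0255), was even within each group. The fall was a match to the barley factor SUSIBA2 (LOC110024133), at 8.60, 14.4 and 10.6 CPM in LD_40d, against 22.9, 44.8 and 32.9 CPM in LD_20d (log2 fold change -1.58 ± 0.31, adjusted p = 0.0276).

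NAC48 (LOC110035537) had 361, 304 and 189 CPM in LD_40d, against 91.2, 68.6 and 51.6 CPM in LD_20d (log2 fold change 2.01 ± 0.47, adjusted p = 0.0403), and all 3 LD_40d values were more than double the highest LD_20d value. NAC74 (LOC110019348) had 774, 149 and 236 CPM in LD_40d, against 85.2, 85.5 and 93.0 CPM in LD_20d (log2 fold change 2.14 ± 0.46, adjusted p = 0.0323), and NAC22 (LOC110039315) had 27.3, 4.39 and 18.8 CPM in LD_40d, against 2.09, 3.75 and 2.42 CPM in LD_20d (log2 fold change 2.61 ± 0.54, adjusted p = 0.0299). In both LD_40d replicate 1 was the highest, and for NAC22 LD_40d replicate 2 lay close to the day 20 libraries. Of 61 MYB factors 5 rose and 2 fell (8.2% and 3.28%, against 2.17% and 2.99%). MYB73 (LOC110026267) had 175, 36.5 and 70.2 CPM in LD_40d, against 7.46, 15.5 and 23.8 CPM in LD_20d (log2 fold change 2.59 ± 0.61, adjusted p = 0.04), MYB306 (LOC110021519), a match to a snapdragon protein, differed by 0.92 ± 0.21, and MYB117 (LOC110038535), a factor of organ boundaries in Arabidopsis, differed by -2.57 ± 0.67.

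Summed over each list, WRKY factors reached 1283, 776 and 896 CPM in LD_40d, against 704, 643 and 650 CPM in LD_20d, and NAC factors 2249, 1460 and 1432 CPM in LD_40d, against 1136, 853 and 925 CPM in LD_20d. The sums did not overlap. In fits without LD_40d replicate 1 the medians were 0.43 and 0.37, without LD_20d replicate 2 they were 0.38 and 0.37, and without LD_20d replicate 3 they were 0.58 and 0.63, all with 0 calls. NAC48 stood at 1.81 without LD_40d replicate 1 and at 1.99 without LD_20d replicate 2, and WRKY46 at 2.15 and 4.08.

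The 12 steepest rises were taken from 280 rises with a mean log2 CPM of at least 2, groups that did not overlap and a described protein. Beside WRKY46 and WRKY53, the set held calcium and ubiquitin signalling proteins. KIC (LOC110029221), a calcium-binding protein, had 183, 14.4 and 26 CPM in LD_40d, against 3.07, 9.63 and 10.7 CPM in LD_20d (log2 fold change 3.26 ± 0.83, adjusted p = 0.0443). CML45 (LOC110018617), a calmodulin-like protein, had 88.1, 8.26 and 30.9 CPM in LD_40d, against 2.65, 5.33 and 8.15 CPM in LD_20d (log2 fold change 2.98 ± 0.73, adjusted p = 0.0415). PUB44 (LOC110033451), a ubiquitin ligase, had 645, 63.3 and 137 CPM in LD_40d, against 27.4, 37.1 and 48.7 CPM in LD_20d (log2 fold change 2.90 ± 0.66, adjusted p = 0.0373). P2C02 (LOC110029951), a protein phosphatase 2C, had 545, 62.3 and 188 CPM in LD_40d, against 18.8, 55.4 and 40.2 CPM in LD_20d (log2 fold change 2.80 ± 0.67, adjusted p = 0.0404). LD_40d replicate 1 was the highest library for all of these, and LD_40d replicate 2 lay just above the day 20 libraries. The PUB44 loci LOC110018660 and LOC110019157 were not called, at -0.519 ± 0.205 and 0.079 ± 0.114 (adjusted p = 0.124 and 0.693).

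The steepest of these rises was a mitochondrial small heat shock protein, HSP22 (HS22M, LOC110021441, scaffold NW_018164576.1, 2759644 to 2760634), at 43.7, 35.3 and 12.1 CPM in LD_40d, against 0.279, 2.25 and 0.440 CPM in LD_20d (log2 fold change 4.90 ± 1.29, adjusted p = 0.0467). Here LD_40d replicates 1 and 2 were both high. The ascorbate oxidase homolog (ASOL, LOC110033152) had 113, 7.14 and 4.64 CPM in LD_40d, against 0.349, 1.98 and 2.05 CPM in LD_20d (log2 fold change 4.82 ± 1.12, adjusted p = 0.0388), and nudix hydrolase 4 (NUDT4, LOC110028568) had 268, 30.9 and 45.2 CPM in LD_40d, against 1.39, 11.8 and 12.4 CPM in LD_20d (log2 fold change 3.75 ± 0.86, adjusted p = 0.0375). The aspartic proteinase PCS1 (LOC110036052) and the DCD domain protein NRP (LOC110037034), which acts in stress signalling in soybean, differed by 3.24 ± 0.77 and 3.06 ± 0.69. Without LD_40d replicate 1, ASOL stood at 2.0, NUDT4 at 2.16, KIC at 1.38 and PUB44 at 1.41, and 0 of the 12 were called. In the control libraries KIC averaged 269 ± 57.5 CPM and PUB44 1705 ± 419.6 CPM (SD, n = 3), above every LD_40d and LD_20d library.

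**Figure D4:**
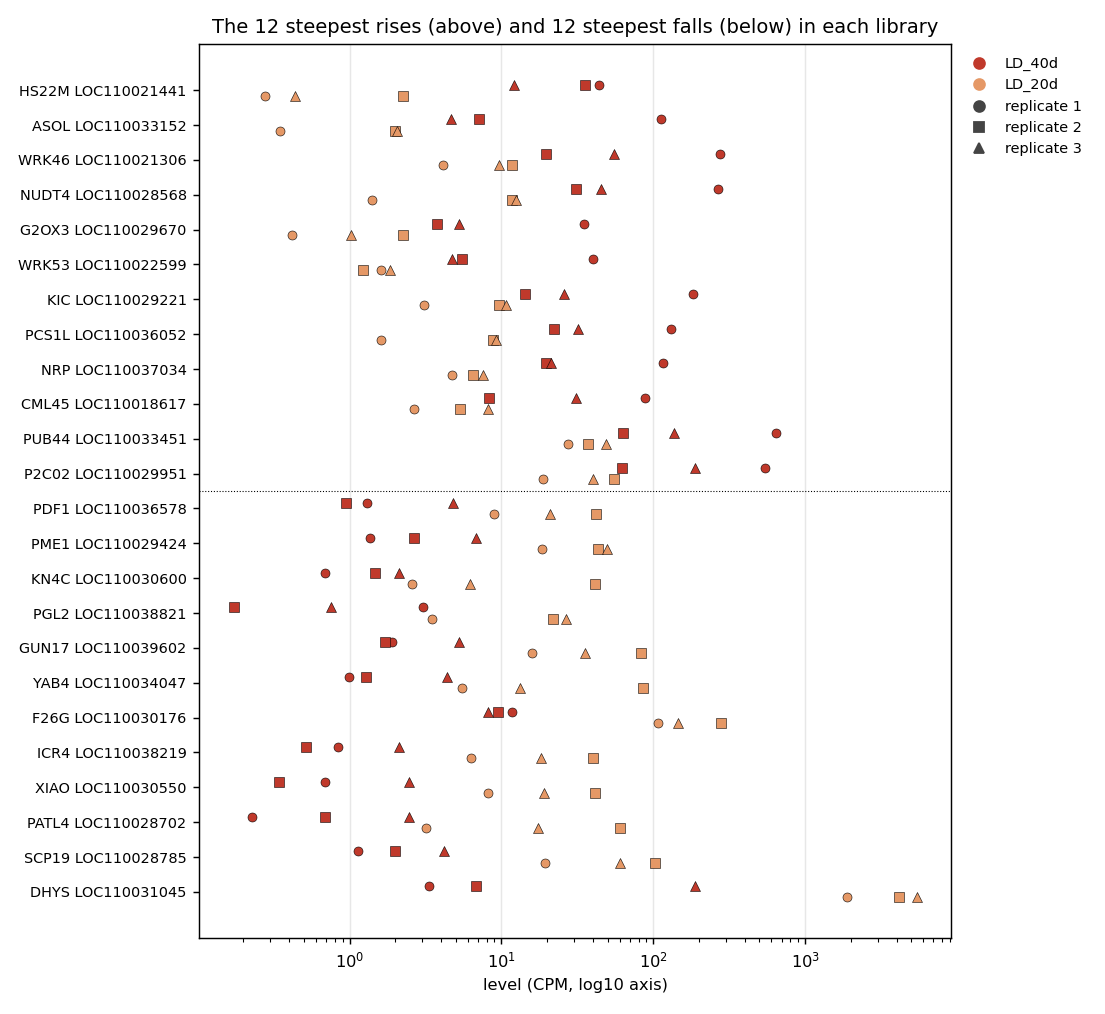
Level of the 12 steepest rises (above the dotted line) and 12 steepest falls (below it) in each library (horizontal axis, CPM on a log10 axis), with LD_40d in red above LD_20d in orange for each gene and a marker shape per replicate number. The groups do not overlap by the rule that chose the genes, LD_40d replicate 1 lies far to the right for most rises, and DHYS lies between 3.35 and 187 CPM in LD_40d, against 1888 to 5455 CPM in LD_20d.

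The 12 steepest falls were taken from 333 falls with a mean log2 CPM of at least 2, groups that did not overlap and a described protein. The steepest of them was a deoxyhypusine synthase-like locus (DHYS, LOC110031045, scaffold NW_018165205.1, 67349 to 72128), whose enzyme family modifies a translation factor and has given rise to a pyrrolizidine alkaloid enzyme in some plants. It had 3.35, 6.8 and 187 CPM in LD_40d, against 1888, 4174 and 5455 CPM in LD_20d (log2 fold change -5.86 ± 1.47, adjusted p = 0.0427). It was among the most abundant of the named genes at day 20, and LD_40d replicate 3 kept a level between the other LD_40d libraries and day 20. The furostanol glycoside glucosidase F26G (LOC110030176), which releases steroid saponins, had 11.8, 9.55 and 8.18 CPM in LD_40d, against 107, 279 and 146 CPM in LD_20d (log2 fold change -4.17 ± 0.69, adjusted p = 0.0211), and its LD_40d values lay within a narrow range. The carboxypeptidase-like locus SCP19 (LOC110028785) had 1.14, 1.98 and 4.16 CPM in LD_40d, against 19.2, 103 and 60.2 CPM in LD_20d (log2 fold change -4.62 ± 0.84, adjusted p = 0.0255).

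Others of the 12 falls act at the plasma membrane or in cell polarity. PATL4 (LOC110028702), a patellin of membrane trafficking, had 0.228, 0.689 and 2.45 CPM in LD_40d, against 3.21, 60.6 and 17.4 CPM in LD_20d (log2 fold change -4.53 ± 1.11, adjusted p = 0.0415). XIAO (LOC110030550), a receptor-like protein that sets organ size in rice, had 0.685, 0.344 and 2.45 CPM in LD_40d, against 8.16, 41.2 and 19 CPM in LD_20d (log2 fold change -4.23 ± 0.79, adjusted p = 0.026). ICR4 (LOC110038219), an interactor of ROP GTPases, had 0.837, 0.516 and 2.11 CPM in LD_40d, against 6.27, 40.3 and 18.1 CPM in LD_20d (log2 fold change -4.17 ± 0.84, adjusted p = 0.028). LD_20d replicate 2 was the highest library in these 3 genes, with LD_20d replicate 1 the lowest of its group. Without LD_20d replicate 2, PATL4 stood at -3.13, XIAO at -3.48 and ICR4 at -3.35, and without LD_40d replicate 1 DHYS stood at -5.30 and F26G at -4.32, none of them called.

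Of the hormone lists, auxin held the most calls. Of 90 auxin genes 8 fell and 0 rose (8.89% against 2.99%), with a median of -0.29. In LD_40d 31 members were lower without overlap and 7 higher, where 16.4% and 14.4% of all genes were so. IAA27 (LOC110032790), an auxin-induced repressor, had 1.14, 0.775 and 3.00 CPM in LD_40d, against 8.02, 15.4 and 20.2 CPM in LD_20d (log2 fold change -3.11 ± 0.71, adjusted p = 0.037). The auxin response factors ARF11 (LOC110023973) and ARF3 (LOC110021167) differed by -2.49 ± 0.58 and -0.56 ± 0.13, and ARF3 had 43.1, 40.7 and 50.4 CPM in LD_40d, against 54.5, 74.7 and 69.4 CPM in LD_20d. The summed level of the list was 4505, 4303 and 4913 CPM in LD_40d, against 5414, 5687 and 5551 CPM in LD_20d, without overlap. Without LD_20d replicate 2 the median was -0.25, and without LD_40d replicate 1 it was -0.17, with 0 calls in both.

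Of 31 gibberellin genes 5 rose and 0 fell (16.1% against 2.17%), with a median of 0.07, which was 0.01 without LD_40d replicate 1 and -0.03 without LD_40d replicate 3. Enzymes that inactivate gibberellins were among them. G2OX2 (LOC110025896) had 14.8, 2.07 and 1.77 CPM in LD_40d, against 0.558, 0.273 and 0.293 CPM in LD_20d (log2 fold change 4.01 ± 0.81, adjusted p = 0.028). G2OX3 (LOC110029670) had 35.0, 3.79 and 5.25 CPM in LD_40d, against 0.418, 2.25 and 1.03 CPM in LD_20d (log2 fold change 3.56 ± 0.90, adjusted p = 0.0442). In both LD_40d replicate 1 was far above the other LD_40d libraries, and without it they stood at 2.32 and 1.87 and were not called. The gibberellin receptor GID1C (LOC110030604) had 139, 85.1 and 119.7 CPM in LD_40d, against 61.3, 46.6 and 66.4 CPM in LD_20d (log2 fold change 0.98 ± 0.17, adjusted p = 0.0233), and GAF1 (IDD2, LOC110020677), a zinc finger partner of DELLA proteins, had 114, 63.4 and 84.2 CPM in LD_40d, against 52.4, 36.9 and 50.1 CPM in LD_20d (log2 fold change 0.91 ± 0.18, adjusted p = 0.0276). These 2 genes were higher in each LD_40d library than in any LD_20d library.

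Of 27 cytokinin genes 1 rose and 2 fell (3.7% and 7.41%, against 2.17% and 2.99%). ORR10 (LOC110035490, scaffold NW_018164444.1, 78360856 to 78365121), a type-A response regulator that cytokinin induces, had 6.93, 6.46 and 9.34 CPM in LD_40d, against 41.2, 26.1 and 24.3 CPM in LD_20d (log2 fold change -2.01 ± 0.29, adjusted p = 0.0178), and it kept its call without LD_20d replicate 3. Of the other hormone genes named here, none was called without LD_40d replicate 1, LD_20d replicate 2 or LD_20d replicate 3, and ORR10 was not called without the first or the second of these. LOGL1 (LOC110022302), of the LOG family that activates cytokinins, rose by 0.42 ± 0.10 and CKX5 (LOC110024452), which degrades them, fell, with 7 counts in LD_40d and 89 in LD_20d. Of 62 ethylene genes 4 rose and 1 fell (6.45% and 1.61%, against 2.17% and 2.99%). Without LD_20d replicate 3 the ethylene list held 0 rises and 1 fall. The response factor ERF5 (LOC110020162) had 69.2, 41.5 and 42.6 CPM in LD_40d, against 26.5, 16.9 and 27.7 CPM in LD_20d (log2 fold change 1.11 ± 0.22). The related ERF060 (LOC110024112) had 69.6, 53.6 and 81.3 CPM in LD_40d, against 21.1, 32.2 and 28.5 CPM in LD_20d (log2 fold change 1.32 ± 0.28). Of 36 abscisic acid genes 1 rose (2.78%, near the 2.17% of all genes), the kinase SAPK2 (LOC110025991, 0.90 ± 0.21). Of 39 jasmonate genes 1 rose and 1 fell (2.56% each, near the shares of all genes): JAR4 (LOC110038389), which makes the active conjugate, had 157, 166 and 175 CPM in LD_40d, against 127, 101 and 117 CPM in LD_20d, and allene oxide synthase 2 (LOC110019894) had 17 counts in LD_40d and 458 in LD_20d.

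Genes of heat, cold and redox responses gave few calls. Of 59 heat shock proteins and factors 2 rose and 1 fell (3.39% and 1.69%, against 2.17% and 2.99%): HSP22, HSFB2C (LOC110025875), a heat stress factor, at 41.0, 26.4 and 27.7 CPM in LD_40d, against 7.46, 5.60 and 7.49 CPM in LD_20d (log2 fold change 2.21 ± 0.43, adjusted p = 0.0268), and HSFB4 (LOC110026689) at -3.21 ± 0.87. Of 72 DnaJ co-chaperones 3 rose and 0 fell (4.17% against 2.17%), and DNAJ8 (LOC110019337), a chloroplast form, had 266, 303 and 168 CPM in LD_40d, against 122, 92.5 and 115 CPM in LD_20d (log2 fold change 1.16 ± 0.24, adjusted p = 0.0289). Of 47 cold and dehydration genes 3 rose and 1 fell (6.38% and 2.13%, against 2.17% and 2.99%). CRPK1 (LOC110028824), a kinase that restrains cold responses in Arabidopsis, had 34.7, 23.8 and 24.8 CPM in LD_40d, against 14.4, 12.6 and 12.5 CPM in LD_20d (log2 fold change 1.07 ± 0.17, adjusted p = 0.0209). The CRPK1 locus LOC110018754 was not called, at -0.101 ± 0.138 (adjusted p = 0.673). A late embryogenesis abundant locus, LEA5 (LOC110030080), had 464, 348 and 169 CPM in LD_40d, against 114, 134 and 96.0 CPM in LD_20d (log2 fold change 1.52 ± 0.41, adjusted p = 0.0484). The locus LEA65 (LOC110018586) differed in the other direction, at -1.008 ± 0.269 (adjusted p = 0.0484). Of 71 glutathione S-transferases and peroxidases 4 rose and 4 fell (5.63% each, against 2.17% and 2.99%), among them catalase (CATA1, LOC110023247) at 1.11 ± 0.28 and GSTF12 (LOC110020435), which helps store anthocyanins in Arabidopsis, at 10.05, 11.3 and 25.0 CPM in LD_40d, against 61.6, 169 and 187 CPM in LD_20d (log2 fold change -3.16 ± 0.76, adjusted p = 0.0407). Of 27 flavonoid genes 2 fell and 0 rose (7.41% against 2.99%), with a median of -0.77, and flavanone 3-hydroxylase (FL3H1, LOC110032785) had 1.45, 2.50 and 5.52 CPM in LD_40d, against 11.2, 11.3 and 15.8 CPM in LD_20d (log2 fold change -2.0 ± 0.52, adjusted p = 0.0453). None of these heat, cold, redox and flavonoid genes was called without LD_40d replicate 1 or without LD_20d replicate 2.

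A copy of the morning clock gene LHY rose. Of 28 clock genes 1 rose and 0 fell (3.57% against 2.17%), with a median of 0.24. LHY at LOC110025280 (scaffold NW_018164739.1, 4335363 to 4370462), the dawn repressor of the plant clock, had 1044, 1139.6 and 978 CPM in LD_40d, against 479, 385 and 517 CPM in LD_20d (log2 fold change 1.20 ± 0.30, adjusted p = 0.0427). All 3 LD_40d values lay far above the LD_20d values. The LHY locus LOC110023014 differed by -0.18 ± 0.12 (adjusted p = 0.346) and its groups overlapped. Of the 25 other clock loci, this one included, expressed at a mean log2 CPM of at least 1, none was called. Without overlap, 8 were higher and 1 was lower in LD_40d, where 14.4% and 16.4% of all genes were so. LNK1 (LOC110035464), a coactivator of morning genes, had 167, 153 and 115 CPM in LD_40d, against 94.1, 64.3 and 69.6 CPM in LD_20d (log2 fold change 0.93 ± 0.27, adjusted p = 0.0586), RVE1 (LOC110020906) differed by 0.54 ± 0.18 (adjusted p = 0.0791) and GIGANTEA (LOC110019219), an evening gene, by -0.25 ± 0.33 with overlap. LHY stood at 1.20 without LD_40d replicate 1 and at 1.08 without LD_20d replicate 2, not called in either. Since the hour of harvest is unknown, a change of level and a shift of the daily rhythm cannot be told apart.

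Of 78 light signalling genes 2 rose and 0 fell (2.56% against 2.17%), a share near that of all genes. PIL13 (LOC110028745, scaffold NW_018164962.1, 681624 to 684621), a phytochrome-interacting factor of rice, had 268, 271 and 300.4 CPM in LD_40d, against 129, 90.8 and 93.5 CPM in LD_20d (log2 fold change 1.42 ± 0.32, adjusted p = 0.0371). COP1 (LOC110022462), the ubiquitin ligase that represses light responses in darkness, had 199, 211 and 197 CPM in LD_40d, against 143, 106 and 113 CPM in LD_20d (log2 fold change 0.75 ± 0.18, adjusted p = 0.0407). In both the LD_40d values lay close together and above every LD_20d value. Without LD_20d replicate 2 they stood at 1.33 and 0.66 and were not called.

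Of 40 flowering time genes 1 rose and 1 fell (2.5% each, near the shares of all genes). CDF2 at LOC110019467 (scaffold NW_018164500.1, 723702 to 726392), a Dof factor that represses CONSTANS in Arabidopsis, had 169, 163 and 97.5 CPM in LD_40d, against 68.4, 40.5 and 55.0 CPM in LD_20d (log2 fold change 1.39 ± 0.25, adjusted p = 0.0255). VIL2 at LOC110037314, a relative of the vernalisation protein VIN3, had 8.60, 8.18 and 16.2 CPM in LD_40d, against 22.7, 44.2 and 27.3 CPM in LD_20d (log2 fold change -1.51 ± 0.37, adjusted p = 0.0415). The CDF2 loci LOC110037410 and LOC110026496 and CDF1 (LOC110018623) leaned the same way as the called CDF2 without passing the test, at 0.53 ± 0.22, 0.34 ± 0.21 and 0.86 ± 0.25 (adjusted p = 0.138, 0.318 and 0.0622). CDF1 had 191, 189 and 183 CPM in LD_40d, against 135, 75.4 and 100.3 CPM in LD_20d. HDR1 (LOC110023470), a regulator of heading date in rice, differed by 0.76 ± 0.21 (adjusted p = 0.0539), and the GHD7-like locus LOC110024148 by 0.84 ± 0.33 (adjusted p = 0.126). CONSTANS-like COL9 (LOC110027028) had 111, 98.1 and 66.1 CPM in LD_40d, against 88.1, 65.1 and 64.7 CPM in LD_20d with overlapping groups. Of the 33 expressed members that were not called, 7 were higher and 4 lower in LD_40d without overlap, where 14.4% and 16.4% of all genes were so. Without LD_40d replicate 1 or LD_20d replicate 2, CDF2 at LOC110019467 stood at 1.25 and 1.21 and was not called.

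Among the genes of the mobile flowering signal, FT at LOC110022369 passed the filter on low counts, with 44, 18 and 23 counts in LD_40d, against 26, 50 and 36 counts in LD_20d (log2 fold change -0.28 ± 0.41, adjusted p = 0.698). The groups overlapped, and the difference was smaller than its SE. Counting limits and intervals cover counting error alone. Of 26 SPL and AP2 genes, which time phase change with plant age, 2 fell and 0 rose (7.69% against 2.99%), with a median of -0.31. SPL17 (LOC110035247) had 0 counts in LD_40d and 23 in LD_20d, at least 7.09-fold lower in LD_40d when set against 3 counts in its libraries together, the limit that 0 counts allow (adjusted p = 0.0427). The AP2-like factor AP2L1 (LOC110023426) had 1.45, 1.89 and 3.20 CPM in LD_40d, against 7.39, 8.12 and 9.47 CPM in LD_20d (log2 fold change -1.92 ± 0.45, adjusted p = 0.0389). Neither was called without LD_40d replicate 1 or LD_20d replicate 2. Of 19 MADS-box genes 0 were called, with a median of -0.03.

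SOC1 (LOC110020085, scaffold NW_018164532.1, 122255 to 163966), the MADS factor that gathers flowering signals, cannot be given a direction. As deposited, it had 49.9, 31.1 and 34.4 CPM in LD_40d, against 64.2, 42.4 and 53.1 CPM in LD_20d (log2 fold change -0.47 ± 0.20, adjusted p = 0.147). The deposited FPKM, which divide each count by gene length and by the library total, reproduce all 21144 counts within 0.01 reads in the 9 control, LD_20d and SD_40d libraries. In the 3 LD_40d and 3 SD_20d libraries they do so for 11989 to 14409 genes with the counts as deposited, and for all 21144 genes once the SOC1 counts and FPKM are exchanged between the LD_40d and SD_20d libraries of the same number. With that exchange SOC1 had 75.9, 70.3 and 68.7 CPM in LD_40d, against 64.2, 42.4 and 53.1 CPM in LD_20d, a log2 fold change of 0.43 ± 0.19 (adjusted p = 0.173). The sign thus turns with the exchange, the test is not passed either way, and why the SOC1 row stands apart is not known.

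The short photoperiod gave more calls over the same days. The 2 comparisons share no group, but they come from 1 fit with a shared estimate of the spread. SD_40d against SD_20d called 6801 genes (40.7%, with 20.1% of all genes rising and 20.7% falling). Of the 861 genes called under the long photoperiod, 857 had the same sign there. The share of all tested genes with the same sign in both comparisons is not given here, so this count has no background beside it. Called in the same direction in both were 779 genes, which is 90.5% of the long photoperiod calls and 11.5% of the short photoperiod calls, and 1 gene was called in opposite directions. The test of the difference between the photoperiods called 0 genes with edgeR (smallest adjusted p 0.385), 1832 genes had an unadjusted p under 0.05, and DESeq2 called 33. By edgeR no gene is shown to change more or less under the long photoperiod than under the short one. SD_40d replicate 1 stood apart from the other SD_40d libraries, with 10724 CPM summed over the CAM list beside 21105 and 24265 CPM in SD_40d replicates 2 and 3. On the first principal component of all 15 libraries SD_40d replicate 1 lay at -16.9, beside LD_40d replicate 3 at -18.55. There LD_20d replicate 2 lay at 64.55, within the range of the SD_20d libraries, 60.73 to 88.12. Why these libraries lay near those of the other photoperiod was not tested. Without SD_40d replicate 1 the test of the difference called 1108 genes, and without LD_20d replicate 2 it called 8.

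Side by side, the mitosis list held 27 falls and a median of -0.64 under the long photoperiod and 82 falls and a median of -1.13 under the short one, and 26 of its 138 genes (18.8%) had an unadjusted interaction p under 0.05, against 11% of all genes. For histones the medians were -0.35 and -1.51, with 22 of 41 genes (53.7%) at an unadjusted interaction p under 0.05 and 0 called. KNOLLE fell by 6.98 ± 1.47 under the long photoperiod and by 8.95 ± 1.55 under the short one (difference: adjusted p = 0.838). DHYS differed by -5.86 ± 1.47 and -5.52 ± 1.44 (difference: adjusted p = 0.954), and F26G by -4.17 ± 0.69 and -2.62 ± 0.65 (difference: adjusted p = 0.525). Among the rises, HSP22 differed by 4.90 ± 1.29 and 5.58 ± 1.17 (difference: adjusted p = 0.904), PUB44 by 2.90 ± 0.66 and 1.41 ± 0.63 (difference: adjusted p = 0.539), and CML45 by 2.98 ± 0.73 and 0.77 ± 0.73 (difference: adjusted p = 0.448). KIN-4C differed by -3.54 ± 0.83 and -6.65 ± 0.97 (difference: adjusted p = 0.421).

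The flavanone 3-hydroxylase locus FL3H1 was called under the long photoperiod at -2.0 ± 0.52 and not under the short one at 0.21 ± 0.51 (adjusted p = 0.759), with an interaction p of 0.00868 before and 0.385 after adjustment over all genes. The GHD7-like locus LOC110024148 rose by 3.50 ± 0.37 under the short photoperiod (adjusted p = 0.00065), against 0.84 ± 0.33 and no call under the long one, with an unadjusted interaction p of 0.000104, which did not pass the adjustment. For the 12 steepest rises and 12 steepest falls, the short photoperiod value had the same sign in all 24, again with no share over all genes to set beside it.

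**Figure D5:**
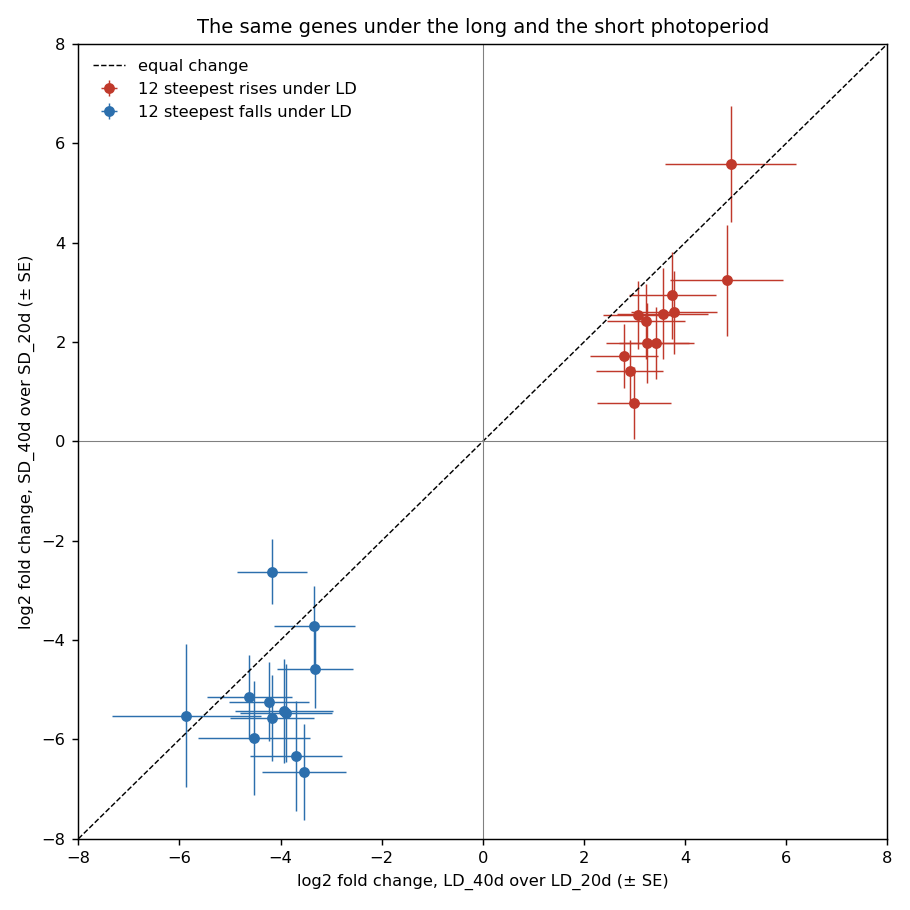
Log2 fold change of LD_40d over LD_20d (horizontal axis) and of SD_40d over SD_20d (vertical axis) for the 12 steepest rises (red) and 12 steepest falls (blue) under the long photoperiod, each ± SE, with a dashed line of equal change. All 24 genes lie at the lower left or the upper right, with the same sign on both axes, and the genes were chosen on the horizontal values, so only the vertical ones are free to vary.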

How the data were processed

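RNA-seq of 15 libraries in 5 groups of 3 was used. The authors' deposited table holds read counts per gene and FPKM, with gene start, end and length, per the file headers. Per the submitters' processing notes, the tools were HISAT2 2.0.5, HTSeq 0.9.1, DESeq 1.30.0 and cutadapt 1.15. Gene names are the table's own matches of Phalaenopsis equestris loci to described proteins, on scaffolds whose build is not given in the sources used here, and neither is strand. The columns left unused for want of a sample numbered 0.

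From the counts, edgeR 4.0.16 (R 4.3.3) fitted a quasi-likelihood model to all 15 libraries with group means, trimmed-mean (TMM) scaling and its filter on low counts, which kept 16700 of 21144 genes. P-values were adjusted by the Benjamini-Hochberg method over those genes, and an adjusted p under 0.05 was a call. CPM are TMM-scaled, and the log2 CPM used to rank and filter genes have a prior count of 2. The SE is the log2 fold change divided by the square root of the test statistic. FPKM, as deposited, served to check the counts. Totals ran from 11246777 to 14637388 counts, and genes with few counts have wide errors.

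Named genes are the 12 steepest rises and falls with described proteins, a mean log2 CPM of at least 2 and groups that do not overlap, in each list, for either direction, the calls with the 3 lowest adjusted p, and clock, flowering time, CAM and meristem members with a mean log2 CPM of at least 1. FT is given whatever its level, and other results of its family are not reported here. The text gives values for part of these 264 genes, picked with their values known. The comparison, its 49 lists and their genes were chosen with earlier results of these data known, and list words that matched unrelated proteins were edited after the table was read. Alternatives were DESeq2 1.42.0, limma-voom 3.58.1, DESeq2 size factors, no filter, the 6 libraries alone, a replicate block, a size threshold and leaving out libraries.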

Additional observations from a re-analysis of the deposited data

How the results depend on the processing

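The 861 calls between LD_40d and LD_20d became 884 with DESeq2 size factors and 773 with no filter. They became 2226 with DESeq2, 483 with limma-voom, 146 in a fit to the 6 libraries alone and 493 with a log2 fold change of at least 1. Leaving out 1 of the 6 libraries gave 1 to 2011 calls, and of the calls in the fit without LD_40d replicate 2, 78.2% were rises, against 42% in the fit to all libraries and 32.7% without LD_20d replicate 1. In alternatives added after seeing the data, the fit without both LD_40d replicate 1 and LD_20d replicate 2 gave 2 calls, and leaving out 1 SD_40d or SD_20d library, which shares the estimate of the spread, gave 185 to 2389. Of the 144 called genes among those named by rule, 74 were called with limma-voom, 20 in the 6 libraries alone and 0 to 134 when 1 of the 6 libraries was left out, 1 without both libraries named above and 38 to 144 without 1 SD_40d or SD_20d library. With the replicate block there were 301 calls, 58 of them among the 144. Same-numbered libraries of LD_40d and LD_20d correlated at 0.005, -0.111 and 0.016 in their deviations from the group means. Differently numbered ones correlated at -0.162 to 0.183, and libraries did not correlate best with their own number. With 3 libraries a group, these values cannot show whether a shared number stands for a shared batch. The test of the difference between photoperiods called 0 genes in the fit to all libraries, 33 with DESeq2, 0 with limma-voom, 0 with the replicate block and 0 to 1108 when 1 library was left out. For SOC1, exchanging the LD_40d and SD_20d counts gave 0.43, against -0.47 as deposited, and how the row came to differ is not known. Which property of a library ends the calls was not tested, and the cause of the other shifts was not tested. Genes with a few counts, such as SPL17, are limited by depth.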

Other observations

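Water, nutrient and defence genes, which the comparisons above leave out, gave few calls, and 0 of those named here were called without LD_40d replicate 1, LD_20d replicate 2 or LD_20d replicate 3. Of 19 aquaporins 1 fell and 0 rose (5.26% against 2.99%), with a median of -0.27. It was the plasma membrane channel PIP1-2 (LOC110020662), with 461, 403 and 395 CPM in LD_40d, against 564, 617 and 655 CPM in LD_20d (log2 fold change -0.55 ± 0.13, adjusted p = 0.04). Of 76 nitrogen and phosphate genes 2 rose and 4 fell (2.63% and 5.26%, against 2.17% and 2.99%). Cytosolic glutamine synthetase (GLN11, LOC110027426), which assimilates ammonium, had 31.8, 31.1 and 46.6 CPM in LD_40d, against 49.4, 101 and 72.3 CPM in LD_20d (log2 fold change -1.02 ± 0.26, adjusted p = 0.0433). The ammonium transporter AMT1-1 (LOC110038906) had 108, 97.5 and 87.4 CPM in LD_40d, against 60.7, 39.5 and 50.5 CPM in LD_20d (log2 fold change 0.96 ± 0.23, adjusted p = 0.0404), so these 2 nitrogen genes differed in opposite directions.

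Of 153 defence genes 5 rose and 4 fell (3.27% and 2.61%, against 2.17% and 2.99%), with a median of 0.01. The disease resistance protein DRL29 (LOC110033145) had 111, 63.3 and 67.6 CPM in LD_40d, against 34.0, 24.2 and 23.6 CPM in LD_20d (log2 fold change 1.57 ± 0.28, adjusted p = 0.0249). Loci matched to EDR4, a regulator of immunity in Arabidopsis, went both ways, with LOC110019453 at 2.08 ± 0.42 and LOC110029678 at -1.07 ± 0.27. Cationic peroxidase 1 (PER1, LOC110026826) had 1 count in LD_40d and 203 in LD_20d, a ratio of LD_20d over LD_40d of 188 (95% counting interval 33.3 to 7450.0, adjusted p = 0.0237). Of 21 Calvin cycle and photorespiration genes 1 rose and 0 fell (4.76% against 2.17%), with a median of 0.55, and the rise was phosphoglycolate phosphatase (PGP1A, LOC110027215), the first enzyme of photorespiration after Rubisco, at 0.72 ± 0.18. Of 12 brassinosteroid genes 1 fell (8.33% against 2.99%), of 14 vascular genes 0 were called, of 71 autophagy and proteasome genes 0 were called, and of 8 retroelement loci 0 were called.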
